A study of Homo sapiens with 6 samples.

Results

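The G1 cyclins and their kinases, kinase inhibitors and pocket protein were examined in 22RV1 cells, an established human prostate cancer line, by poly(A) RNA sequencing. A list of 10 gene symbols defined the set, namely CCND1, CCND2, CCND3, CCNE1, CCNE2, CDK4, CDK6, CDKN1B, CDKN2C and RB1. A gene was kept where its Ensembl identifier was a row of the deposited table, which held for 9 of the 10 among 17811 genes in all. CCND2, the remaining D-type cyclin, was not analysed here. All 9 passed the filter on low values, which asked for 10 or more normalised reads in 2 or more libraries, as did 17742 genes in total.

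D-type cyclins are made in response to growth signals and pair with CDK4 and CDK6, and E-type cyclins pair with CDK2. Both kinds of kinase phosphorylate RB1, the retinoblastoma protein, which in its unphosphorylated form holds E2F transcription factors and keeps genes of DNA replication silent. CDKN2C (p18INK4c) binds CDK4 and CDK6 directly, and CDKN1B (p27Kip1) binds the cyclin-kinase complexes and restrains CDK2. In prostate epithelium, loss of RB1 or CDKN1B is known to bear on this pathway.

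Cells stably expressed a short hairpin RNA against IMPDH2 (shIMPDH2), against IMPA1 (shIMPA1) or against luciferase (shLuc, the control), and each of the 3 groups had 2 libraries. IMPDH2 makes the precursor of guanine nucleotides, and IMPA1 releases free inositol from inositol phosphates. RPMI-1640 medium with serum was used throughout, and no further agent is named. Nothing in the labels tells if a group's libraries were grown apart or carried different hairpin sequences. The p-values are thus set by library-to-library spread alone, part of which may be technical.

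The libraries held 20828900 to 22442454 reads in shIMPDH2 cells, 26215122 to 27601249 in shIMPA1 cells and 27405563 to 27773294 in shLuc cells. Values below are normalised read counts, that is, reads divided by a size factor per library, and a log2 fold change is the difference of mean log2(value + 1), with limma's moderated standard error (SE). A gene was called when the Benjamini-Hochberg adjusted p from limma, fitted over all 6 libraries and all genes, was below 0.05. Each hairpin was checked on its own target. IMPDH2 stood at 2932 and 3166 in shIMPDH2 cells, 4435 and 5055 in shIMPA1 cells and 4270 and 5032 in shLuc cells (shIMPDH2 against shLuc, log2 fold change -0.61, SE 0.13, limma adjusted p = 0.00999). IMPA1 stood at 1795 and 1842 in shIMPDH2 cells, 957 and 1101 in shIMPA1 cells and 1621 and 1331 in shLuc cells (shIMPA1 against shLuc, log2 fold change -0.52, SE 0.13, limma adjusted p = 0.0145). Both targets were lower in their own knockdown without overlap. The IMPDH2 call was lost without shLuc library 2 or either shIMPDH2 library, the IMPA1 call without shLuc library 1, and both without a mean-variance trend.

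Luminal prostate markers were present in every library. FOXA1, a luminal transcription factor, was at 7418 and 6690 in shIMPDH2 cells, 7644 and 6243 in shIMPA1 cells and 6081 and 7178 in shLuc cells. KRT8, a luminal keratin, was at 40650 and 46452 in shIMPDH2 cells, 58623 and 52886 in shIMPA1 cells and 71625 and 63788 in shLuc cells, lowest in shIMPDH2. Of 6 markers of basal or other epithelial lines, 5 were in the table, with sums of 243 to 254 in shIMPDH2, 85.3 to 230 in shIMPA1 and 840 to 951 in shLuc cells. VIM, a mesenchymal filament protein, made up most of the shLuc sums, at 61.2 and 70.9 in shIMPDH2, 40.4 and 43.1 in shIMPA1 and 658 and 753 in shLuc cells. The basal keratins KRT5 and KRT14 ran the other way and differed between the shIMPA1 libraries. KRT5 was at 79.7 and 84.4 in shIMPDH2 cells, 0 and 88.9 in shIMPA1 cells and 0.900 and 1.75 in shLuc cells. KRT14 was at 55.5 and 37.1 in shIMPDH2, 1.80 and 54.4 in shIMPA1 and 0 and 0.875 in shLuc cells, so for these keratins shIMPA1 library 2 was like the shIMPDH2 libraries. Whether lines were mixed was not tested. Stromal and endothelial markers (4 of 7 in the table) summed to 214 to 218 in shIMPDH2, 282 to 395 in shIMPA1 and 516 to 555 in shLuc cells. Libraries of the same group differed by more than 2-fold at 398 genes in shIMPDH2, 934 in shIMPA1 and 266 in shLuc. Several fold changes are therefore also given without each shIMPA1 library, and the part of these marker and library differences in the results was not tested.

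CCND1 was by far the most abundant of the 9 genes per unit of length. On the scale of RPKM (reads per kb of merged exons, scaled to the library's total reads), its level was 462 ± 29.1 in shIMPDH2 cells, 616 ± 13.1 in shIMPA1 cells and 436 ± 53.3 in shLuc cells (mean ± SD, n = 2). By read number it ranked between 10 and 40 among all genes in the 6 libraries. CDKN1B came after it, with levels of 184 ± 3.55, 259 ± 11.0 and 155 ± 15.3 in shIMPDH2, shIMPA1 and shLuc cells, and CDK4 came next, with 87.7 ± 3.71, 86.9 ± 0.436 and 91.2 ± 1.40. CDKN2C followed in every group, with levels of 19.7 ± 0.312, 16.2 ± 6.70 and 37.5 ± 0.396.

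The other 5 genes were much rarer, and their order differed between groups. CCNE2, RB1 and CCND3 had mean levels of 13.0, 10.8 and 7.70 in shIMPDH2 cells, 5.01, 6.78 and 5.21 in shIMPA1 cells and 12.9, 8.69 and 8.85 in shLuc cells. Their ranges over libraries overlapped in shIMPA1 cells, and those of RB1 and CCND3 also in shLuc cells. Their order also changed when length was taken from the longest transcript, where CCND3 stood above CCNE2 and RB1 in each group. CCNE1 and CDK6 were the 2 lowest, at 3.18 and 1.41 in shIMPDH2 cells, 2.40 and 2.94 in shIMPA1 cells and 2.73 and 3.83 in shLuc cells. CDK6 was below CCNE1 in both shIMPDH2 libraries and above it in every shIMPA1 and shLuc library. With the longest transcript as length, shIMPA1 library 2 had CDK6 at 3.02 and CCNE1 at 3.42, the other order.

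**Figure D1:**
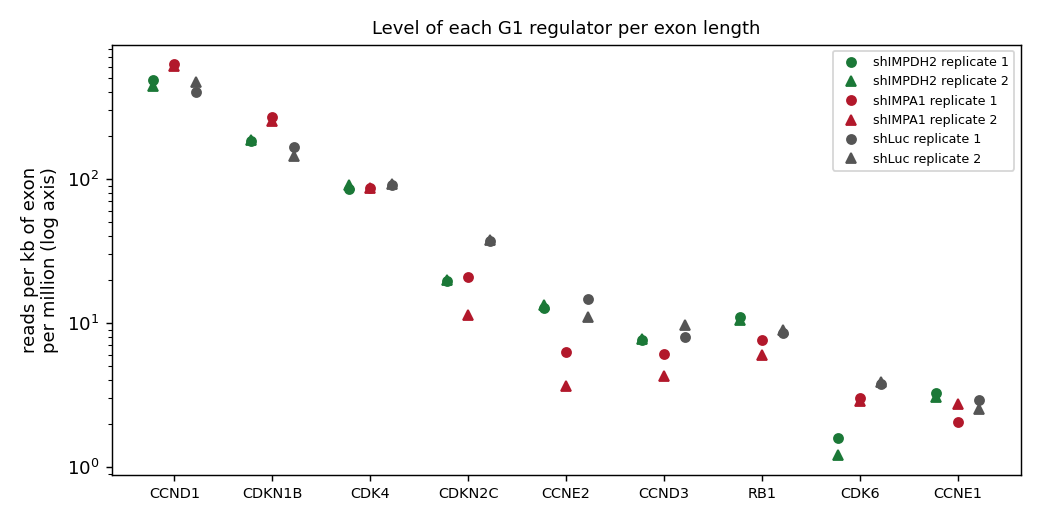
Level of each of the 9 genes in RPKM (reads per kb of merged exons, scaled to the library's total reads), on a log axis, with 1 point per library in shIMPDH2, shIMPA1 and shLuc cells. CCND1, CDKN1B and CDK4 lie highest in all 6 libraries, and CDK6 and CCNE1 lowest, with CDK6 at a mean of 1.41 in shIMPDH2 cells.

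With IMPA1 knocked down, the set changed in both directions. Of the 9 genes, 1 rose (CDKN1B) and 5 fell (CCND3, CCNE2, CDK6, CDKN2C and RB1) against shLuc. CCND1, CCNE1 and CDK4 were not called. Over all genes tested, 30.2% were called, 14.0% higher and 16.2% lower. The median log2 fold change of the 9 was -0.42, against 0.02 over all genes tested. In 8 of the 9 the shIMPA1 and shLuc libraries did not overlap, while 66.4% of all genes had groups that did not overlap. The number called was 3 without shLuc library 2 and 4 without shLuc library 1. In bulk RNA, fewer cells expressing a gene and less RNA per cell cannot be told apart.

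With IMPDH2 knocked down, 2 of the 9 genes were called, and both fell, CDK6 and CDKN2C. By limma, edgeR and DESeq2 alike 0 rose, and at an unadjusted p below 0.05 in limma 1 did, RB1. The background was 17.0% of all genes called, with 7.86% higher and 9.15% lower, so that the share among the 9 genes lay near it. The median log2 fold change of the 9 was 0.04, against -0.01 over all genes. Groups did not overlap in 5 of the 9, as in 66.2% of all genes. The call of CDKN2C was lost when any 1 shIMPDH2 or shLuc library was left out, which left CDK6 alone, whereas RB1 was added when either shIMPA1 library was left out.

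Set directly against each other, the knockdowns differed at 5 of the 9 genes. CCND3, CCNE2 and RB1 were higher and CDK6 and CDKN1B lower in shIMPDH2 than in shIMPA1 cells. Of all genes, 26.1% were called, 13.5% higher and 12.6% lower. The median log2 difference was 0.40 over the 9 genes and 0.00 over all genes, and the groups did not overlap in 7 of the 9 and in 63.9% of all genes. The number called was 3 without either shIMPDH2 library, where CCND3 and CDKN1B were lost. The 3 comparisons share libraries, so their values are given side by side and no agreement between them is read as a result. With 2 libraries a group, an exact permutation test of a single gene cannot go below p = 0.333, and all calls come from limma's fit across genes.

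**Figure D2:**
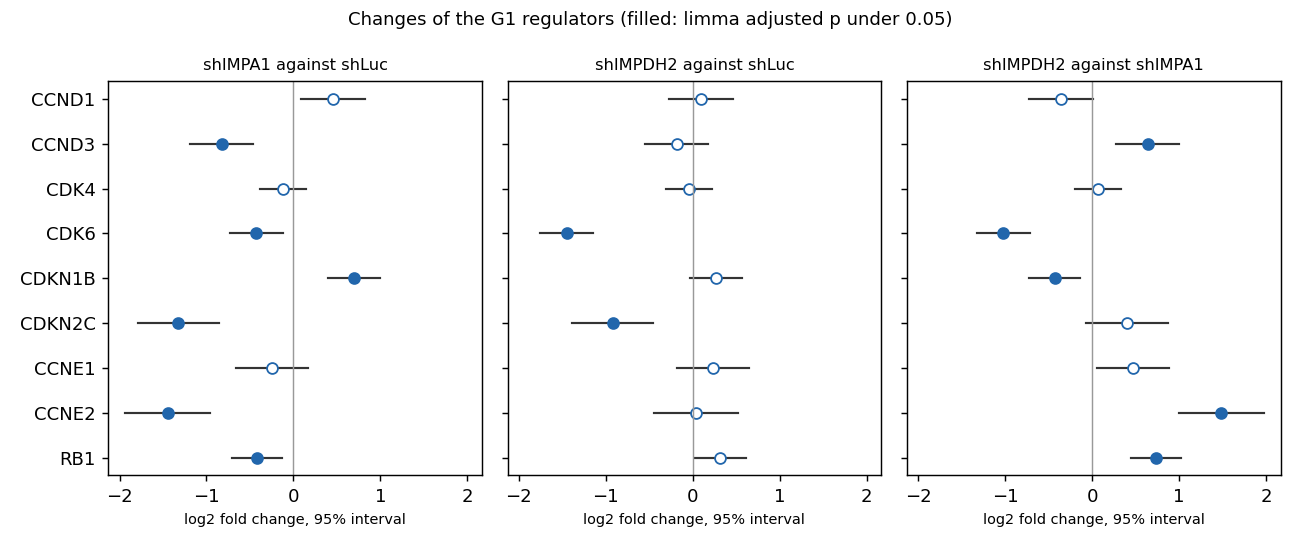
Log2 fold change of each of the 9 genes with its 95% interval from limma, for shIMPDH2 against shLuc, shIMPA1 against shLuc and shIMPDH2 against shIMPA1, with filled points for adjusted p below 0.05. CCNE2 and CDKN2C lie furthest below 0 in shIMPA1 against shLuc (-1.45 and -1.32), and CDK6 in shIMPDH2 against shLuc (-1.45).

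Among the D-type cyclins, CCND3 was lower with IMPA1 knocked down and CCND1 was not called in any comparison by limma. CCND1 (ENSG00000110092, chr11:69641087-69654474, plus strand, GRCh38), the first partner of CDK4 and CDK6 and an oncogene in many carcinomas, had values of 56037 and 53774 in shIMPDH2 cells, 71041 and 69766 in shIMPA1 cells and 47468 and 55611 in shLuc cells. Both shIMPA1 libraries lay above the other 4, while the shIMPDH2 and shLuc libraries overlapped. The log2 fold change of shIMPA1 against shLuc was 0.45 (SE 0.17, 95% interval 0.08 to 0.82, limma adjusted p = 0.0626). Tests on reads recovered from the values called it, with adjusted p = 0.0402 by edgeR and 0.00670 by DESeq2, in a range of 0.00670 to 0.282 over 17 alternatives. For shIMPDH2 against shLuc the log2 fold change was 0.10 (SE 0.17, limma adjusted p = 0.736), and between the knockdowns it was -0.36 (SE 0.17, limma adjusted p = 0.140). DESeq2 called that difference between the knockdowns (adjusted p = 0.0399, in a range of 0.0399 to 0.402 over 17 alternatives).

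CCND3 (ENSG00000112576, chr6:41934933-42050357, minus strand), a D-type cyclin with the same kinase partners, had values of 1062 and 1140 in shIMPDH2 cells, 835 and 596 in shIMPA1 cells and 1140 and 1371 in shLuc cells. The shIMPA1 libraries lay below all others and also furthest apart, with a 1.40-fold gap. CCND3 fell by 0.82 on the log2 scale in shIMPA1 against shLuc (SE 0.17, limma adjusted p = 0.00395). The log2 fold change was -1.07 without shIMPA1 library 1 and -0.58 without library 2, and the call was lost without shLuc library 2. Between shIMPDH2 and shLuc it was -0.18 (SE 0.17, limma adjusted p = 0.480), and shIMPDH2 cells stood above shIMPA1 cells by 0.64 (SE 0.17, limma adjusted p = 0.0163), at 0.88 without shIMPA1 library 1 and 0.40 without library 2. Per unit of length, CCND1 made up 98.3% to 98.4% of the sum of CCND1 and CCND3 in shIMPDH2 libraries, 99.0% to 99.3% in shIMPA1 libraries and 98.0% in both shLuc libraries.

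The E-type cyclins did not move alike. CCNE2 (ENSG00000175305, chr8:94879770-94896678, minus strand) was at 1342 and 1476 in shIMPDH2 cells, 655 and 386 in shIMPA1 cells and 1601 and 1173 in shLuc cells. It partners CDK2 at the G1/S boundary and is itself a known E2F target. Every shIMPA1 library was below every other library, and the shIMPDH2 libraries lay within the shLuc range. CCNE2 fell by 1.45 on the log2 scale in shIMPA1 against shLuc, a 2.72-fold difference (SE 0.22, limma adjusted p = 0.000881), and the call held in 17 of 17 alternatives. The fold change was -1.83 without shIMPA1 library 1 and -1.06 without library 2. For shIMPDH2 against shLuc the log2 fold change was 0.04 (SE 0.22, 95% interval -0.45 to 0.53, limma adjusted p = 0.926), with a sign that turned without shLuc library 2 or shIMPDH2 library 2. Between the knockdowns it was 1.48 higher in shIMPDH2 cells (SE 0.22, limma adjusted p = 0.000899), at 1.86 without shIMPA1 library 1 and 1.1 without library 2.

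CCNE1 (ENSG00000105173, chr19:29811898-29824308, plus strand), the second E-type cyclin, was at 200 and 199 in shIMPDH2 cells, 124 and 167 in shIMPA1 cells and 184 and 158 in shLuc cells. The shIMPDH2 libraries were the 2 highest, and the shIMPA1 and shLuc libraries overlapped. No comparison was called, with log2 fold changes of -0.24 for shIMPA1 against shLuc (SE 0.19, limma adjusted p = 0.363), 0.23 for shIMPDH2 against shLuc (SE 0.19, limma adjusted p = 0.438) and 0.47 between the knockdowns (SE 0.19, limma adjusted p = 0.0888). Between the knockdowns it was 0.68 and called without shIMPA1 library 2, and 0.26 and not called without library 1. Per unit of length, the share of CCNE2 in the sum of both E-type cyclins was 79.6% and 81.1% in shIMPDH2 libraries, 75.4% and 57.3% in shIMPA1 libraries and 83.5% and 81.2% in shLuc libraries. The share was lower in both shIMPA1 libraries than in any other library, and much lower in library 2.

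Of the kinases, CDK6 was lower in both knockdowns and CDK4 was not called in any comparison. CDK4 (ENSG00000135446, chr12:57747727-57756013, minus strand) had values of 6488 and 7225 in shIMPDH2 cells, 6452 and 6577 in shIMPA1 cells and 7051 and 7099 in shLuc cells. Both shIMPA1 libraries were below both shLuc libraries, and the shIMPDH2 libraries spanned the shLuc values. The log2 fold change was -0.12 for shIMPA1 against shLuc (95% interval -0.38 to 0.14, limma adjusted p = 0.488), -0.05 for shIMPDH2 against shLuc (95% interval -0.31 to 0.22, limma adjusted p = 0.821) and 0.07 between the knockdowns (95% interval -0.19 to 0.34, limma adjusted p = 0.698). These intervals leave room for changes of that size in either direction.

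CDK4 is a textbook target of MYC through E-boxes, and MYC differed between these groups, so the E-boxes before the RefSeq start of CDK4 are shown. MYC stood at 3157 and 3117 in shIMPDH2 cells, 6744 and 5323 in shIMPA1 cells and 4659 and 5206 in shLuc cells. It was lower in shIMPDH2 than in shLuc cells by 0.65 on the log2 scale (SE 0.14, limma adjusted p = 0.00915), a call kept in 2 of the 6 fits that left out a library. Between the knockdowns the MYC log2 fold change was -0.93 (limma adjusted p = 0.000819), called in 6 of those 6 fits, and for shIMPA1 against shLuc it was 0.28 (limma adjusted p = 0.145). The RefSeq window of 250 bases before that start (GRCh38.p14, minus strand of chromosome 12) held the letters CACGTG, which read alike on both strands, at 3 places, in capitals below. This window, chr12:57752311-57752560, lies inside the gene as GENCODE gives it, with the gene's start at 57756013. Of its bases, 211 are in GENCODE exons, and the bases before the GENCODE start were not searched. The printed stretches of 30 bases lie at chr12:57752509-57752538, chr12:57752489-57752518 and chr12:57752394-57752423. The first 2 stretches overlap, but their CACGTG letters, 216 to 211 and 196 to 191 bases before the RefSeq start, do not.
CDK4 site 1: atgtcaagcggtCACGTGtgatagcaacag
CDK4 site 2: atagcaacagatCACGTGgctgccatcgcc
CDK4 site 3: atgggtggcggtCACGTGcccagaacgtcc
CACGTG was found in 6.34% of 35116 RefSeq promoter windows of this length, and in 3 of the 12 windows of these genes. Those 3 belong to CDK4 and CDKN2C alone, with CDKN2C counted at more than a single start. This motif was chosen after the windows had been read, and a match describes letters, not binding.

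CDK6 (ENSG00000105810, chr7:92604921-92836594, minus strand), the second kinase of D-type cyclins, had values of 472 and 375 in shIMPDH2 cells, 873 and 835 in shIMPA1 cells and 1137 and 1164 in shLuc cells. The 3 groups did not overlap, with shIMPDH2 lowest and shIMPA1 between. CDK6 fell by 1.45 on the log2 scale in shIMPDH2 against shLuc, a 2.73-fold difference (SE 0.14, limma adjusted p = 8.49e-05), and the call held in 17 of 17 alternatives. In shIMPA1 against shLuc it fell by 0.43 (SE 0.14, limma adjusted p = 0.0372), a call lost without either shLuc library and without a mean-variance trend. Between the knockdowns the log2 fold change was -1.02, lower in shIMPDH2 cells (SE 0.14, limma adjusted p = 0.000495), at -0.99 without shIMPA1 library 1 and -1.05 without library 2. The CDK6 share of the summed CDK4 and CDK6 levels per unit of length was 1.85% and 1.32% in shIMPDH2 libraries, 3.38% and 3.18% in shIMPA1 libraries and 4.03% on average in shLuc libraries.

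The inhibitors moved apart from each other. CDKN1B (ENSG00000111276, chr12:12715058-12722371, plus strand) had values of 12301 and 13260 in shIMPDH2 cells, 17652 and 16820 in shIMPA1 cells and 11470 and 9824 in shLuc cells. The groups did not overlap, and shIMPA1 was highest. CDKN1B rose by 0.70 on the log2 scale in shIMPA1 against shLuc, 1.62-fold (SE 0.14, limma adjusted p = 0.00327), and was called in 17 of 17 alternatives. For shIMPDH2 against shLuc the log2 fold change was 0.27 (SE 0.14, limma adjusted p = 0.204). Between the knockdowns it was -0.43 (SE 0.14, limma adjusted p = 0.0378), a call that held in 10 of 17 alternatives and was lost without any 1 shIMPDH2 or shLuc library.

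CDKN2C (ENSG00000123080, chr1:50960745-50974633, plus strand) had values of 1553 and 1666 in shIMPDH2 cells, 1634 and 905 in shIMPA1 cells and 3044 in each shLuc library. All 4 knockdown libraries were well below the shLuc libraries, and shIMPA1 library 1 lay inside the shIMPDH2 range. CDKN2C fell by 1.32 on the log2 scale in shIMPA1 against shLuc, a 2.5-fold difference (SE 0.21, limma adjusted p = 0.00115), in 17 of 17 alternatives. The fold change was -1.75 without shIMPA1 library 1 and -0.90 without library 2. In shIMPDH2 against shLuc it fell by 0.92 (SE 0.21, limma adjusted p = 0.0140), and the call held in 12 of 17 alternatives. Between the knockdowns the log2 fold change was 0.40 (SE 0.21, limma adjusted p = 0.187), at 0.83 without shIMPA1 library 1 and -0.02 without library 2. Per unit of length, the CDKN2C share of both inhibitors together was 9.66% and 9.62% in shIMPDH2 libraries, 7.27% and 4.36% in shIMPA1 libraries and 18.4% and 20.8% in shLuc libraries.

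CDK6 and CDKN2C are the genes called lower in both knockdowns, and the RefSeq windows (GRCh38.p14) of 250 bases before the outermost start that the table lists for each are shown for that reason. The CDK6 window is chr7:92836574-92836823 on the minus strand, with the SP1 letters GGGCGG, on either strand, in capitals at 3 places. The CDKN2C window is chr1:50960495-50960744 on the plus strand, with CACGTG in capitals.
CDK6: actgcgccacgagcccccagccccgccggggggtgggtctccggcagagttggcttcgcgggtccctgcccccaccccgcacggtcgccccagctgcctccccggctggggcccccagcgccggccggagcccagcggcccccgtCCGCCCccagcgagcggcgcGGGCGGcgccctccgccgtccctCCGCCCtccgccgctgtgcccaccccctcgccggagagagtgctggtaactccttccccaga
CDKN2C: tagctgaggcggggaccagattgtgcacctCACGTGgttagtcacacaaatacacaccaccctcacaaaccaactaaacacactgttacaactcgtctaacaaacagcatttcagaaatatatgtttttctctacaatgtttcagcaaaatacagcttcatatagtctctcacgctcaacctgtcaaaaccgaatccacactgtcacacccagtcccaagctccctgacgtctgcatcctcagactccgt
The CDK6 window shown had a GC content of 80.0% and the CDKN2C window shown 45.6%. Windows at other starts differed, with 77.2% and 48.8% for CDKN2C, both with SP1 letters, and 67.6% for CDK6, without them. SP1 letters were found in 42.6% of all 35116 windows, and in 8 of the 12 windows, over 7 genes, that the table gave for this set. The E2F letters searched (TTTCCCGC, TTTGGCGC, TTTGCCGC and TTTCGCGC, both strands) were in 2.79% of all windows and in 0 of the 12, which says only that these letters are not in those windows. CCND1 and CCNE2 had no window. The only RB1 window, chr13:48476200-48476449, lies inside the gene, which starts at 48303726, so the bases before that start were not searched. The same holds for CCND3, CDK4 and CDKN1B, whose windows all lie inside the gene as GENCODE gives it.

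RB1 (ENSG00000139687, chr13:48303726-48599436, plus strand), the pocket protein that the D-type and E-type kinases act on, had values of 1712 and 1710 in shIMPDH2 cells, 1151 and 919 in shIMPA1 cells and 1351 and 1394 in shLuc cells. The groups did not overlap, with shIMPDH2 highest and shIMPA1 lowest. RB1 was 0.73 higher in shIMPDH2 than in shIMPA1 cells on the log2 scale (SE 0.13, limma adjusted p = 0.00263), in 17 of 17 alternatives, at 0.90 without shIMPA1 library 1 and 0.57 without library 2. Each difference from shLuc was less certain. In shIMPA1 against shLuc, RB1 fell by 0.42 (SE 0.13, limma adjusted p = 0.0343), but only 1 of the 6 fits that left out a library kept the call, and without shIMPA1 library 2 the fold change was -0.25. In shIMPDH2 against shLuc, the log2 fold change was 0.32 (SE 0.13, 95% interval 0.03 to 0.61, limma adjusted p = 0.122), and 3 of 17 alternatives called it.

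**Figure D3:**
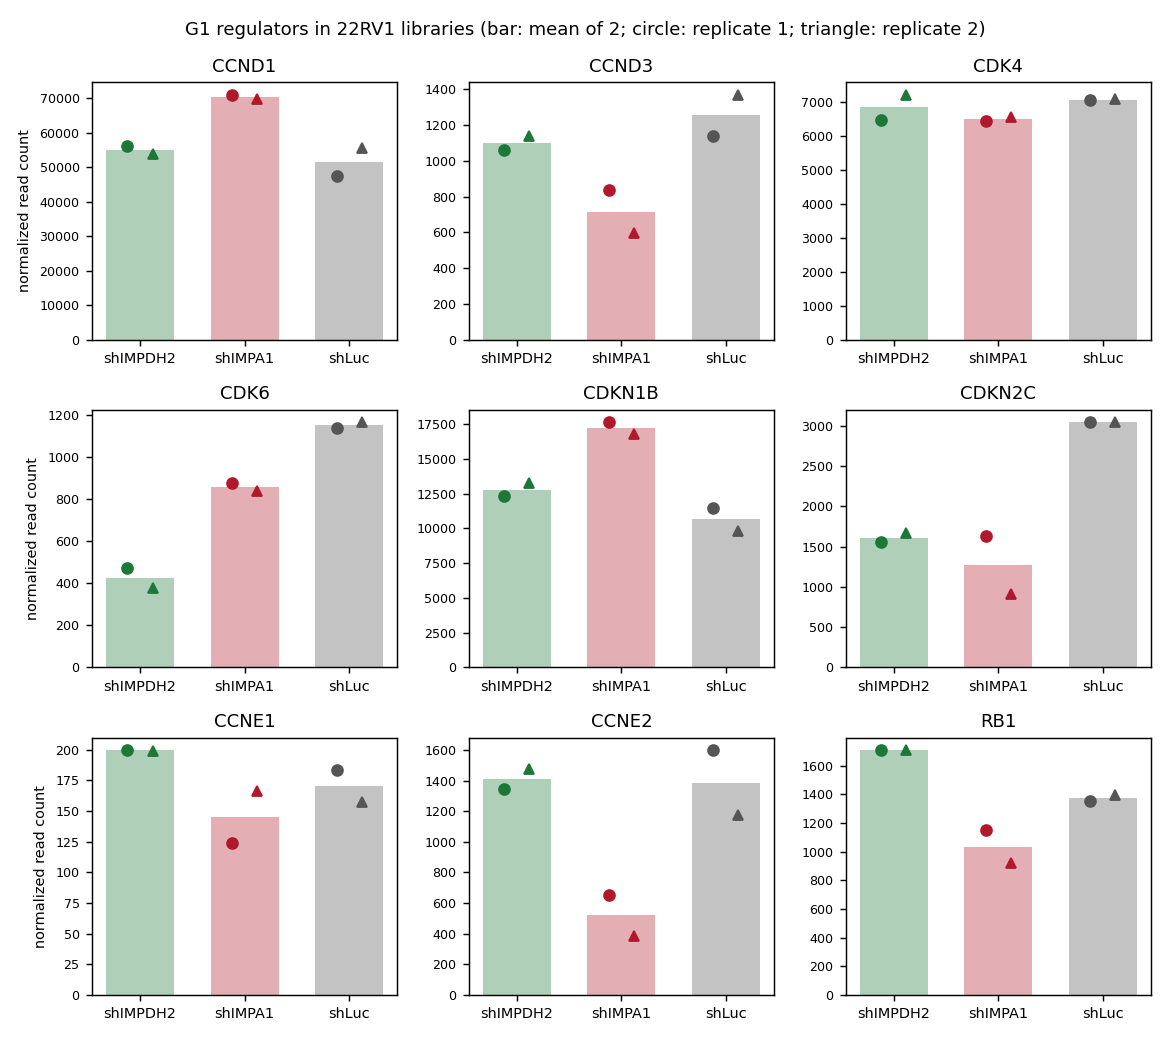
Normalised read counts of the 9 genes in each library, with 1 panel per gene, 1 point per library and a bar at the group mean, for shIMPDH2, shIMPA1 and shLuc cells. CDK6 and CDKN2C are lower in all 4 knockdown libraries than in shLuc, and CCNE2 and RB1 are lowest in the shIMPA1 libraries.

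The library labelled shIMPA1 2 lay further from shLuc than shIMPA1 1 for CCND3, CCNE2, CDKN2C and RB1, while CCND1, CDK4, CDK6 and CDKN1B were nearly equal in both. Relative to the shLuc mean, the log2 value of CCNE2 was -1.06 in shIMPA1 library 1 and -1.83 in library 2, and that of CDKN2C was -0.90 and -1.75. For CDK6 the same values were -0.40 and -0.46, and for CDKN1B 0.73 and 0.66. CCNE1 went the other way, at -0.45 in library 1 and -0.03 in library 2.

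**Figure D4:**
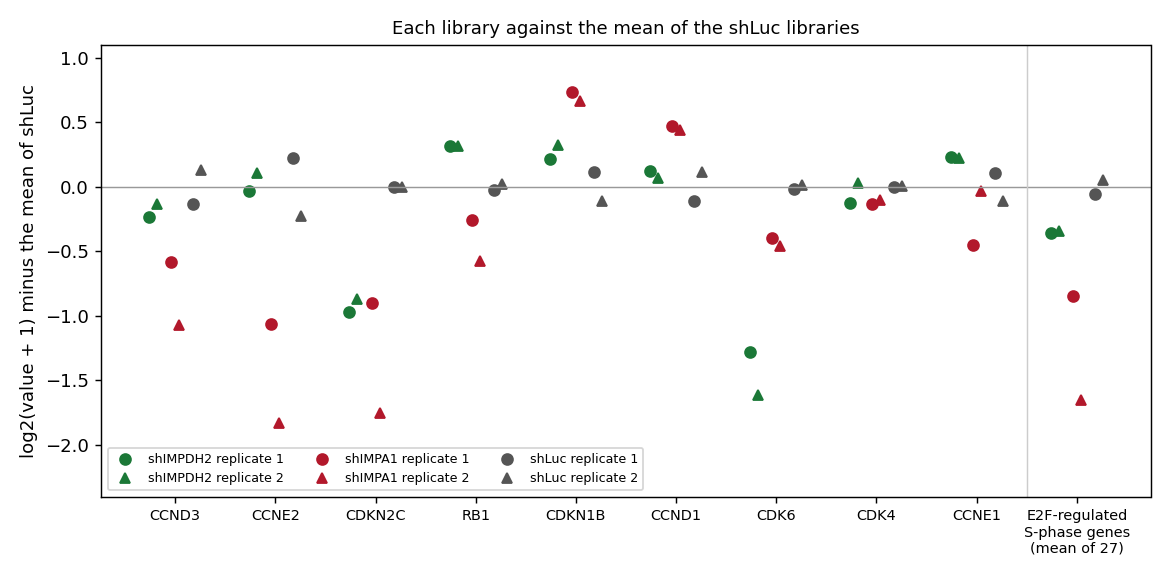
Log2 value of each of the 9 genes in each library minus the mean of the shLuc libraries, with libraries in the order shIMPDH2, shIMPA1, shLuc. The last column, past a dividing line, is the mean of a list of 27 E2F-regulated S-phase genes. CDKN2C is at -0.90 and -1.75 and CCNE2 at -1.06 and -1.83 in the shIMPA1 libraries, and CDK6 is at -1.28 and -1.62 in the shIMPDH2 libraries.

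Some of these genes share exonic sequence with a gene on the opposite strand, and whether strand was used in counting is not given in the sources used here. LTO1, opposite CCND1, was at 519 and 507 in shIMPDH2, 661 and 865 in shIMPA1 and 554 and 524 in shLuc cells. INTS8, opposite CCNE2, had a log2 fold change of -0.47 for shIMPA1 against shLuc (limma adjusted p = 0.0243). TSPAN31, opposite CDK4, had one of 0.52 (limma adjusted p = 0.0335). CCND3 and CDK6 also share exonic sequence with a noncoding gene on the opposite strand, AL513008.1 and AC002454.1, whose values were not analysed here. The values of all these 5 genes carry that uncertainty.

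A chosen list of genes that RB1 and E2F are known to control fell with IMPA1 knocked down. The E-type cyclins were not on that list, and of them CCNE2 was called lower and CCNE1 was not called (-0.24, limma adjusted p = 0.363). All 27 genes of the list, E2F-regulated S-phase genes, were called lower in shIMPA1 than in shLuc cells, 100% beside 30.2% of all genes. Their median log2 fold change was -1.29, against 0.02 over all genes. They included MCM3 (-1.47, SE 0.12) and MCM6 (-1.29, SE 0.13), subunits of the replicative helicase, and CDC6 (-1.53, SE 0.17), which loads that helicase. The 27 calls fell to 15 without shLuc library 2 and to 21 without shLuc library 1, and leaving out 1 library at a time put the median between -1.73 and -0.85. The mean of the list relative to shLuc was -0.36 and -0.34 in shIMPDH2 libraries and -0.85 and -1.66 in shIMPA1 libraries, so that shIMPA1 library 2 was again the lower one.

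With IMPDH2 knocked down, 2 of the 27 were called, both lower, which is 7.41% beside 17.0% of all genes. The count was 14, all lower, when either shIMPA1 library was left out of the fit, and 1 when any shIMPDH2 or shLuc library was. MCM3 fell by 1.70 (SE 0.12, limma adjusted p = 8.68e-06), and GINS1, a part of the same helicase, fell by 0.80 (SE 0.22, limma adjusted p = 0.0299). MCM3 was at 3936 and 4167 in shIMPDH2 cells, 4732 and 4804 in shIMPA1 cells and 12998 and 13375 in shLuc cells, below the control in all 4 knockdown libraries. Between the knockdowns 20 of the 27 (74.1%, beside 26.1% of all genes) were higher in shIMPDH2 cells and 0 lower, with a median of 0.92. That count fell to 10 without shIMPDH2 library 1, 8 without shIMPDH2 library 2 and 15 without either shLuc library, and was 26 without shIMPA1 library 1 and 17 without shIMPA1 library 2. Those higher included MCM6, CDC6 and MCM4, at 1.21, 1.44 and 1.37 (SE 0.13, 0.17 and 0.17).

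Genes of later cyclins, kinases and CDC25 phosphatases were also mostly lower with IMPA1 knocked down. Of 12 such genes of S phase, G2 and M that were tested, 9 were lower and 0 higher in shIMPA1 against shLuc. In shIMPDH2 against shLuc 0 were called, and 5 were higher in shIMPDH2 than in shIMPA1 cells. These are 75%, 0% and 41.7% of the list, beside 30.2%, 17.0% and 26.1% of all genes. The 9 included WEE1 and PKMYT1 (-0.72 and -1.16), kinases that inhibit CDK1, and the phosphatase CDC25A (-0.51). CDC25B and CDC25C were not called in any comparison. CDK2, the partner of E-type cyclins, was at 4226 and 4612 in shIMPDH2 cells, 3315 and 2089 in shIMPA1 cells and 5155 and 5851 in shLuc cells (shIMPA1 against shLuc, log2 fold change -1.06, SE 0.19, limma adjusted p = 0.00184). CCNA2, the S-phase cyclin, was at 3340 and 3610 in shIMPDH2 cells, 2049 and 996 in shIMPA1 cells and 4027 and 4065 in shLuc cells (shIMPA1 against shLuc, -1.50, SE 0.25, limma adjusted p = 0.00134). Both genes were lowest in shIMPA1 library 2, and without shIMPA1 library 1 or 2 the fold change was -1.39 or -0.73 for CDK2 and -2.02 or -0.98 for CCNA2. For shIMPDH2 against shLuc, where limma called 0, an unadjusted p below 0.05 was met by 2 of the 12, both lower, edgeR and DESeq2 each called 1, and 6 were called lower without either shIMPA1 library. The 9 of shIMPA1 against shLuc became 3 without shLuc library 1 and 4 without shLuc library 2, and the 5 between the knockdowns 1 without shIMPDH2 library 1 and 0 without shIMPDH2 library 2. That last count was 10 higher and 1 lower without shIMPA1 library 1.

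Other CDK inhibitors and pocket proteins were called in both directions. Of 8 tested, 3 were higher and 2 lower in shIMPA1 against shLuc, 1 higher and 1 lower in shIMPDH2 against shLuc, and 1 higher and 3 lower between the knockdowns. That is 62.5% of the list in shIMPA1 against shLuc, beside 30.2% of all genes, 25.0% in shIMPDH2 against shLuc, beside 17.0%, and 4 of 8 between the knockdowns, beside 26.1%. CDKN2B (p15INK4b), a relative of CDKN2C that also binds CDK4 and CDK6, was at 469 and 480 in shIMPDH2 cells, 2233 and 5549 in shIMPA1 cells and 290 and 284 in shLuc cells. Its log2 fold change in shIMPA1 against shLuc was 3.61 (SE 0.30, limma adjusted p = 1.83e-05), though the shIMPA1 libraries differed widely, with 4.27 without library 1 and 2.96 without library 2. CDKN1A (p21), a relative of CDKN1B, was at 4823 and 4973 in shIMPDH2, 3861 and 4153 in shIMPA1 and 3425 and 3448 in shLuc cells, and rose by 0.51 in shIMPDH2 against shLuc (SE 0.11, limma adjusted p = 0.0118), a call kept in 2 of the 6 fits that left out a library. These counts were small and moved with single libraries, from 2 to 6 called in shIMPA1 against shLuc, 0 to 6 in shIMPDH2 against shLuc and 2 to 6 between the knockdowns. RBL1, a pocket protein related to RB1, fell by 1.02 in shIMPA1 against shLuc (SE 0.19, limma adjusted p = 0.00237), with -1.32 and -0.72 without shIMPA1 library 1 or 2. RBL2, the other pocket protein of the list, rose by 0.53 in that comparison (limma adjusted p = 0.0330). It was at 2172 and 3187 in shIMPA1 and 1743 and 1916 in shLuc cells. CDKN2A also rose there, by 0.43 (SE 0.12, limma adjusted p = 0.0213).

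Of 7 genes for the CDK-activating kinase and CDK assembly, 4 were lower in shIMPA1 against shLuc, among them CKS2 and HSP90AB1 (-1.38 and -0.76, SE 0.28 and 0.16). The 4 became 1 without either shLuc library. In shIMPDH2 against shLuc, 1 of the 7 rose (CDK7, 0.52) and 1 fell (CCNH, -0.48), and between the knockdowns 2 were higher and 1 lower. The CDK7 and CCNH calls each held in 2 of the 6 fits that left out a library, and that of CDK7 was also lost with the filter at 50 and with DESeq2 size factors. The shares of the list, 57.1%, 28.6% and 42.9%, stood beside 30.2%, 17.0% and 26.1% of all genes.

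Of 14 ubiquitin ligase genes that turn over G1 regulators, 3 were higher and 2 lower in shIMPA1 against shLuc, 0 were called in shIMPDH2 against shLuc, and 1 was higher and 2 lower between the knockdowns. The shares of 35.7% and 21.4% in the first and last of these lay near the 30.2% and 26.1% of all genes, and leaving out 1 library put the counts between 0 and 8 and between 0 and 6. SKP2, which marks CDKN1B for degradation, was at 1212 and 1074 in shIMPDH2, 1136 and 594 in shIMPA1 and 1506 and 1569 in shLuc cells, and fell by 0.90 in shIMPA1 against shLuc (SE 0.23, limma adjusted p = 0.0138), a call kept in 4 of the 6 fits that left out a library. For the 14 in shIMPDH2 against shLuc, edgeR and DESeq2 also called 0, and 3 had an unadjusted p below 0.05 in limma, while 4 were called higher and 1 lower without either shIMPA1 library and with only those groups in the fit.

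The DREAM complex represses cell cycle genes in quiescent cells. Of 11 genes listed for the DREAM and MuvB complexes, 4 were lower in shIMPA1 against shLuc and 3 lower in shIMPDH2 against shLuc. The 4 were RBBP4, TFDP1, LIN9 and MYBL2. RBL2 was counted in the list of pocket proteins, and repression by the complex was not measured. Between the knockdowns 1 was higher and 2 lower. TFDP1, the dimer partner of E2F factors, was lower than shLuc in both, at -0.40 in shIMPDH2 and -0.57 in shIMPA1 cells (SE 0.12 each, limma adjusted p = 0.0410 and 0.00466). Neither TFDP1 call held in every fit that left out a library, and that of shIMPDH2 was kept in fewer. Of 19 tested regulators of cyclin D genes and CDKN1B, 5 were higher and 4 lower in shIMPA1 against shLuc, 0 higher and 4 lower in shIMPDH2 against shLuc, and 3 higher and 6 lower between the knockdowns. ID1, an inhibitor of basic helix-loop-helix factors, had means of 10383 in shIMPDH2, 1854 in shIMPA1 and 8533 in shLuc cells (shIMPA1 against shLuc, -2.31, SE 0.28, limma adjusted p = 0.000198, with -2.90 and -1.73 without shIMPA1 library 1 or 2). Of 13 atypical cyclins, 4 were higher and 1 lower in shIMPA1 against shLuc, 1 higher and 0 lower in shIMPDH2 against shLuc, and 2 higher and 3 lower between the knockdowns. CCNG2 rose by 0.96 and CCNG1 fell by 0.77 in shIMPA1 against shLuc (SE 0.11 each). In shIMPA1 against shLuc, 36.4% of the DREAM and MuvB list, 47.4% of the regulators and 38.5% of the atypical cyclins were called, beside 30.2% of all genes. In shIMPDH2 against shLuc the shares were 27.3%, 21.1% and 7.69%, beside 17.0%, and between the knockdowns 27.3%, 47.4% and 38.5%, beside 26.1%. Leaving out 1 library put the numbers called at 0 to 4, 2 to 12 and 3 to 6 in shIMPA1 against shLuc, 0 to 5, 0 to 10 and 0 to 2 in shIMPDH2 against shLuc, and 0 to 5, 4 to 14 and 2 to 7 between the knockdowns.

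Profiles over the 6 libraries were compared with those of 13306 other genes by the root mean square distance of centred log2 values, for the called genes whose group means spanned at least 0.7. The closest to CCND3 were DCAF15, ACOT7 and LSM2, at distances of 0.05 each. For CCNE2 they were IKBIP, RECQL and POLE2 (0.12, 0.12 and 0.14), and for CDK6 PAPLN, FOXD2-AS1 and PDGFC (0.07, 0.10 and 0.10). MPP2, MAMSTR and GINS1 were closest to CDKN2C (0.04, 0.07 and 0.08), and NEMF, NEDD9 and FH to RB1 (0.04, 0.05 and 0.06). POLE2, a DNA polymerase subunit, and GINS1 are the genes of DNA replication among them. With 6 libraries in 3 groups, close profiles are a description only.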

How the data were processed

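Poly(A) RNA from 6 libraries was measured. The submitters' processing notes name Trimmomatic 0.36, STAR 2.5.2b, featureCounts from Subread 1.5.2, DESeq2 and the build GRCh38. Per the labels' protocols, unique reads in exons were counted. Neither strand use nor the annotation release is stated in those labels. The deposited signal values are reads that the authors divided by a size factor per library: rescaling gave whole reads, within 0.05, for nearly all genes (99.98% or more in each library). The authors' own log2 fold change and p-value columns, deposited beside them without a named comparison, were not used.

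Genes, coordinates and exon lengths were matched through GENCODE 29, which held 17750 of 17811 identifiers, and promoter windows are from RefSeq. The filter removed 69 genes. The fit used limma 3.58.1 in R 4.3.3 on log2(value + 1) with a mean-variance trend, 1 coefficient per group and 3 residual degrees of freedom. It was also run on simulated data with far fewer changed genes than were called here, which does not measure its error rate in these data. Because the values are normalised, limma gave the main results, and edgeR 4.0.16 and DESeq2 1.42.0 on recovered reads served as alternatives. Over all genes, limma called 5361, 3018 and 4627 for shIMPA1 against shLuc, shIMPDH2 against shLuc and shIMPDH2 against shIMPA1, edgeR 5480, 3010 and 4551, and DESeq2 4685, 2625 and 3978. Other alternatives were other scaling (which shifted libraries by -0.0113 to 0.00673 on the log2 scale), filters, pseudocounts, no trend, only the compared groups, a replicate block and leaving out each library. The named genes are the members, both hairpin targets, up to 3 called genes with the smallest adjusted p in each list and comparison, and the 3 closest profiles of each member spanning at least 0.7. Outside that rule, FOXA1, KRT8, VIM, KRT5 and KRT14 stand for the marker lists, and the genes opposite a member for the strand overlap. MYC in shIMPA1 against shLuc stands there for its contrast, RBL2 as the other pocket protein, and further genes to describe a list. All were chosen after values were seen. The members and lists were chosen with earlier results of these data known. Some genes of the marker lists are not reported here.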

Additional observations from a re-analysis of the deposited data

Results flagged for a closer look

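The effects of the hairpins relative to shLuc differed at 5 genes, by limma's test of shIMPDH2 against shIMPA1. CCNE2 differed by 1.48 on the log2 scale, RB1 by 0.73 and CCND3 by 0.64, all higher in shIMPDH2. CDK6 had a difference of -1.02 and CDKN1B one of -0.43, lower in shIMPDH2. The call of CDKN1B held in 10 of 17 alternatives and that of CCND3 in 14 of 17, while the other 3 held in 17 of 17.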

How the results depend on the processing

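Leaving out 1 library at a time, which assumes that the lone library of a group varies like the others, moved the number of genes called over the whole table to 2147 to 7940 for shIMPA1 against shLuc, 773 to 6386 for shIMPDH2 against shLuc and 1430 to 7052 between the knockdowns. Of the 9 genes, 3 to 6, 1 to 3 and 3 to 6 were called in these fits. Without a mean-variance trend, 3508, 1727 and 2909 genes were called in the whole table, and 1 of the 9 for shIMPDH2 against shLuc and 3 of the 9 between the knockdowns. With only the compared groups in the fit, 6382 genes were called for shIMPDH2 against shLuc. The sign of some uncalled fold changes turned when 1 library was left out, namely CCND1 (-0.0187 to 0.210), CCNE2 (-0.186 to 0.262) and CDK4 (-0.125 to 0.0302) for shIMPDH2 against shLuc, and CDK4 (-0.00593 to 0.149) and CDKN2C (-0.0226 to 0.829) between the knockdowns. Causes were not tested. Of the other alternatives, 285 values kept their direction and side of the threshold, 8 lost a call and 4 gained one. Deviations from the group means hardly correlated between libraries of the same replicate number (0.04, -0.05 and 0.0003). These correlations cannot tell whether such libraries were handled together. With a replicate block, 5298, 2939 and 4537 genes were called, and 6, 2 and 4 of the 9, with CDKN1B lost between the knockdowns. Depth limits CCNE1 most, at 138 to 204 reads a library.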
